A study of Mus musculus with 8 samples.

Results

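Messenger RNA of STAT5 target genes and of the SOCS family was compared between 2 sets of mouse acute myeloid leukaemia (AML) cells. The set comprises 10 genes chosen by name: the SOCS family members Cish, Socs1, Socs2 and Socs3, the transcription factors Stat5a and Stat5b, and the reported STAT5 targets Pim1, Pim2, Bcl6 and Osm. Of these, 9 had at least 1 probe set annotated to a single gene, 15 probe sets in all, among 17097 genes and 45141 probe sets on the array. Osm, a cytokine of the interleukin-6 family, had none and was not analysed here. Where a gene had several, the one brightest on average over the 8 arrays stands for it.

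The arrays measured total RNA, 4 labelled Trib1 hi (Hoxa9 together with Trib1) and 4 labelled Trib1 null (Hoxa9 alone). All cells came from leukaemias of Trib1 homozygous knockout mice, and both groups were grown untreated in serum-containing medium with interleukin-3 (IL-3). Hoxa9 is a leukaemogenic homeobox factor, and Trib1 is a pseudokinase that promotes degradation of C/EBP alpha and binds MEK1. The sources used here give neither the vectors nor whether each line is 1 clone. The labels do not name separate cultures within a group, so p-values reflect only how these arrays vary, and that variation may be technical.

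IL-3 binds a receptor made of a specific alpha chain and a shared beta chain. The Janus kinase JAK2 bound to that receptor then phosphorylates STAT5A and STAT5B, which pair, enter the nucleus and bind DNA elements of the form TTCNNNGAA. Cish and SOCS genes are among the direct targets, and their proteins act back on the receptor and its kinase, which closes a negative feedback loop. In myeloid cells the same factors support survival and growth through targets such as the Pim kinases.

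The sequence around the start of Cish shows that element, which was searched as TTCNNNGAA. The motif reads the same on both strands, and matches were counted from 250 bases before to 50 bases after each start in RefSeq's promoter table (GRCm38.p6). It was present in 2726 of 32851 windows, or 8.3%. Windows were listed for 8 of the 10 genes, all except Socs2 and Osm, and 3 of these genes held a match: Cish, Socs3 and Bcl6. Counted by window, as in the 8.3%, 4 of 12 held a match. Bcl6 held 3 matches in 1 window and 1 in another. Cish held 2 matches, beginning at base 1 and base 12 of the transcript. The milk protein gene Csn2, a textbook STAT5 target on the list of other targets, is shown for comparison, having been chosen after its values were seen. It held 1 match, 93 bases before its start, with the same 9 letters as the second match in Cish. The windows printed here cover 150 bases before each start, with 20 bases of the transcript for Cish, and capitals mark the matches.
Cish (chr9:107296509-107296678, plus strand): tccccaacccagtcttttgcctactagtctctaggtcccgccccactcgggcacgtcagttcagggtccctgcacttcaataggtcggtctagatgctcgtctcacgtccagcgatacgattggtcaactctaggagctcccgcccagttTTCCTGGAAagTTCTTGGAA
Csn2 (chr5:87699426-87699575, minus strand): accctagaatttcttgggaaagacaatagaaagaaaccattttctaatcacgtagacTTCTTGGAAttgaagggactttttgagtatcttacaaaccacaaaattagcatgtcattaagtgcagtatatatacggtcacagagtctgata
A match describes these letters and does not show that STAT5 was bound there in these cells.

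Low signals could not be compared between arrays. The background control probe set GC25 read 379 on Trib1 hi 3, against 11.4 to 15.1 on the other 3 arrays labelled Trib1 hi and 149 to 335 on those labelled Trib1 null. The 75th percentile ran from 15.5 to 422 over the 8 arrays, highest on Trib1 hi 3, while the 90th percentile lay between 1808 and 1985. For folds, every signal under 500 was raised to 500. They are written "at least" where just 1 of the groups had arrays under 500. No fold is given where both groups had arrays below 500. Trib1 itself read 5.92 to 122 in the group labelled Trib1 hi and 206 to 304 in the group labelled Trib1 null, all below 500 and opposite to the labels, so it does not check them. Hoxa9 read 10.0 to 391 on the arrays labelled Trib1 hi and 969 to 1075 on those labelled Trib1 null. Xist, the RNA of an inactive X chromosome, read 4.79 to 102 on the arrays labelled Trib1 hi and 8286 to 9709 on those labelled Trib1 null. The effect of Trib1 and a difference between the cell lines cannot be told apart, nor, in bulk RNA, can fewer cells in a given state and less RNA per cell. Each direction below is that of the labels.

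The set divided. Cish and Socs2 rose in the arrays labelled Trib1 hi, Socs3 and Stat5b fell, and Socs1, Stat5a, Pim1, Pim2 and Bcl6 did not pass the test (adjusted p under 0.05 over all 12250 genes tested). By limma, 30.8% of all genes tested passed it, 11.1% higher and 19.7% lower, so 4 of 9 is a count to be read against a high background. After quantile normalization 3350 genes were higher and 3352 lower, against 1363 and 2409 as deposited. The groups did not overlap for 5 of the 9 genes, against 29.3% of all genes tested. All 9 passed the filter on low values, but Socs1, Pim2 and Bcl6 read below 500 on every array. Cish, Socs2 and Pim1 read above 500 on every array. Of the 4465 genes that did so, 51.7% passed the test, 1155 higher and 1153 lower, with a median log2 difference of 0.02.

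**Figure D1:**
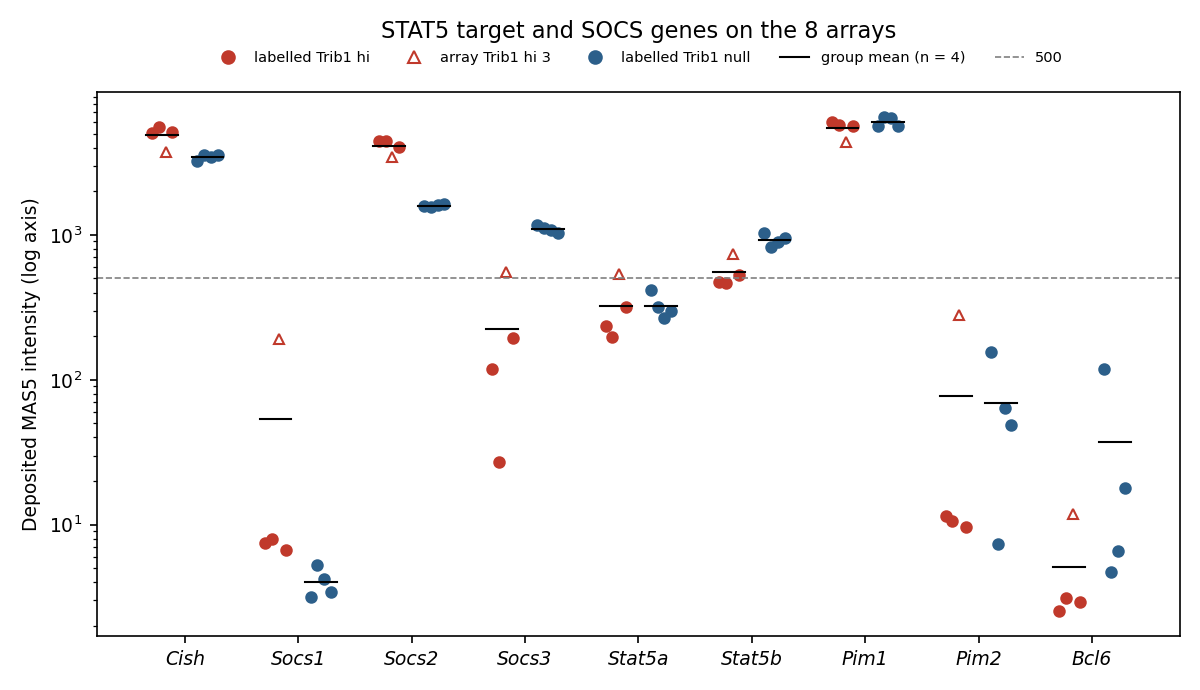
Deposited MAS5 intensity (log axis) of the 9 measured genes on each of the 8 arrays, with the 4 arrays labelled Trib1 hi on the left of each pair, the 4 labelled Trib1 null on the right, bars at the group means and a dashed line at 500. Cish and Socs2 lie higher and Socs3 and Stat5b lower in Trib1 hi arrays, with no overlap, while Socs1, Pim2 and Bcl6 lie below 500 on every array and the open triangle of Trib1 hi 3 stands above the other 3 arrays of its group for them.

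Cish encodes a SOCS-family protein that binds activated cytokine receptors and is induced by STAT5. It read 5043, 5547, 3721 and 5151 on arrays Trib1 hi 1 to 4, against 3248, 3580.1, 3428 and 3566 on arrays Trib1 null 1 to 4. The groups did not overlap, although Trib1 hi 3 came close to the range of the group labelled Trib1 null. Group means were 4866 ± 793 and 3456 ± 154 (SD, n = 4 each). Cish rose 1.39-fold, a log2 difference of 0.48 ± 0.10 (SE, adjusted p = 0.000453), or 0.60 without Trib1 hi 3. The call ended when the variance was shared over genes without a mean-variance trend (adjusted p = 0.0685, range over alternatives 1.44e-06 to 0.0685). Among the 4465 genes above 500 on every array, 14.7% had a larger log2 difference.

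Socs2, best known as a brake on growth hormone signalling through STAT5B, had a larger log2 difference than Cish. It read 4454, 4433, 3429 and 4035 on arrays Trib1 hi 1 to 4, against 1572, 1548, 1616 and 1634 on arrays Trib1 null 1 to 4. Every array labelled Trib1 hi read more than every array labelled Trib1 null, and the values of the group labelled Trib1 null lay close together. The means were 4088 ± 479 and 1592 ± 39.5 (SD, n = 4 each). Socs2 rose 2.55-fold, a log2 difference of 1.35 ± 0.10 (SE, adjusted p = 4.32e-13), and 1.28% of genes above 500 on every array had a larger one. Leaving out 1 array at a time gave 1.31 to 1.43.

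A second probe set of Socs2 moved in the same direction. It read 1478, 1604, 1529 and 1714 in the group labelled Trib1 hi and 562, 450.4, 504 and 552 in the group labelled Trib1 null, at least 2.98-fold higher. Its log2 difference was 1.61 ± 0.14 in a fit over all single-gene probe sets (adjusted p = 6.89e-10), where 26.2% of 19322 probe sets passed, 9.05% higher and 17.2% lower. Both other Socs2 probe sets were dim, at 2.09 to 51.6 in the group labelled Trib1 hi and 1.26 to 4.29 in the group labelled Trib1 null. With the log2 values of all 4 averaged, the difference of Socs2 was 1.02 and missed the threshold (adjusted p = 0.142, the highest of 18 alternatives).

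Socs3, the SOCS protein that binds JAK kinases together with the gp130 and G-CSF receptors and is induced mainly through STAT3, went the other way. It read 119, 26.9, 552 and 193 on arrays Trib1 hi 1 to 4, against 1172, 1115, 1085 and 1036 on arrays Trib1 null 1 to 4. The groups did not overlap, and Trib1 hi 3 was the sole array of its group above 500. The means were 223 ± 230 and 1102 ± 57.0 (SD, n = 4 each). Socs3 fell at least 2.15-fold (adjusted p = 5.24e-06). Its log2 difference of -2.97 ± 0.47 (SE) includes signals below 500. It was -2.22 without Trib1 hi 2, -3.63 without Trib1 hi 3 and -1.10 with signals below 500 set to 500, and the call held under each of the 18 alternatives (adjusted p up to 0.0477).

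Socs1, which inhibits JAK kinases directly and is known as a target of interferon signalling, was near the bottom of the scale. It read 7.42, 7.91, 192 and 6.70 on arrays Trib1 hi 1 to 4, against 3.18, 5.31, 4.23 and 3.45 on arrays Trib1 null 1 to 4. The groups did not overlap, but all 8 values lie below 500 and Trib1 hi 3 is far above the other arrays. The difference missed the threshold (adjusted p = 0.300), and passed without Trib1 hi 3 (0.0359) and after quantile normalization (0.000229).

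The factors themselves are encoded by neighbouring genes on chromosome 11. Stat5b read 469.7, 466, 743 and 528 on arrays Trib1 hi 1 to 4, against 1022, 829, 886 and 958 on arrays Trib1 null 1 to 4. The groups did not overlap, and 2 arrays labelled Trib1 hi lay below 500. Stat5b fell at least 1.65-fold, with means of 552 ± 131 and 924 ± 84.2 (SD, n = 4 each) and a log2 difference of -0.76 ± 0.17 (SE, adjusted p = 0.000752). Its second probe set overlapped between the groups and lay below 500 on every array, at 6.91 to 234 in the group labelled Trib1 hi and 29.0 to 186 in the group labelled Trib1 null. With both averaged, the call ended (log2 difference -1.38, adjusted p = 0.168, the highest of 18 alternatives).

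Stat5a, the close relative of Stat5b, was not called. It read 236, 198, 539 and 320.1 on arrays Trib1 hi 1 to 4, against 416, 318, 267 and 299 on arrays Trib1 null 1 to 4. The groups overlapped, and Trib1 hi 3 was the highest of the 8. The log2 difference was -0.10, with a 95% interval from -0.86 to 0.66 (adjusted p = 0.906), and turned to 1.21 after quantile normalization (adjusted p = 0.000102) and to 0.10 without Trib1 hi 2 (adjusted p = 0.892). Whether Stat5a and Stat5b differed in their response was not tested.

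Pim1, a serine/threonine kinase that supports survival downstream of STAT5, overlapped between the groups. It read 6034, 5740.4, 4383 and 5651 on arrays Trib1 hi 1 to 4, against 5659.8, 6494, 6398 and 5651 on arrays Trib1 null 1 to 4. The lowest of the 8 values was that of Trib1 hi 3. The means were 5452 ± 731 and 6051 ± 458 (SD, n = 4 each). The log2 difference of -0.16 had a 95% interval from -0.37 to 0.06 (adjusted p = 0.315). It was -0.06 without Trib1 hi 3 and passed the test after quantile normalization (-0.27, adjusted p = 2.98e-05).

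Genes around Pim1 on chromosome 17 were often lower. Of the 20 nearest tested genes, 10 on each side, 10 were lower and 0 higher in the arrays labelled Trib1 hi, with a median log2 difference of -0.49. On the whole chromosome, 284 of 633 tested genes (44.9%) were lower and 18 higher, against 19.7% and 11.1% over all genes. Its median log2 difference was -0.47, against 0.04 for all genes tested. The plot of genes in chromosome order shows Pim1 among them. The part of the chromosome-wide difference in the Pim1 value was not tested.

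**Figure D2:**
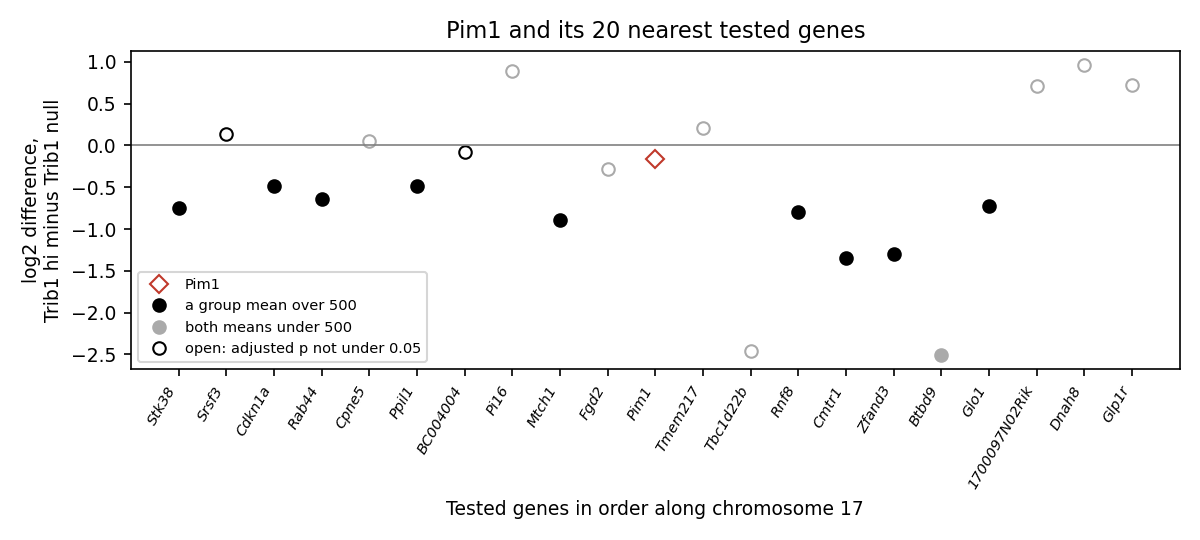
Log2 difference, Trib1 hi minus Trib1 null, of Pim1 (diamond) and its 20 nearest tested genes in their order along chromosome 17. Filled points passed the test, grey points had both group means under 500, and the 10 filled points all lie below 0 while Pim1 lies at -0.16.

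Pim2, a relative of Pim1 on the X chromosome, read 11.4, 10.6, 279 and 9.60 on arrays Trib1 hi 1 to 4, against 155, 7.36, 63.7 and 48.4 on arrays Trib1 null 1 to 4. The groups overlapped and the difference had a wide 95% interval, from -4.40 to 2.88 on the log2 scale (adjusted p = 0.835). Bcl6, a transcriptional repressor that STAT5 is known to repress in lymphoid cells, read 2.54, 3.11, 11.9 and 2.94 in the group labelled Trib1 hi, against 119, 4.73, 6.57 and 17.8 in the group labelled Trib1 null. Its difference missed the threshold too (adjusted p = 0.348), and the means of its second probe set, 28.3 ± 46.7 and 10.1 ± 8.15 (SD, n = 4 each), lay in the opposite order. No level of either gene could be compared between the groups at these signals.

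**Figure D3:**
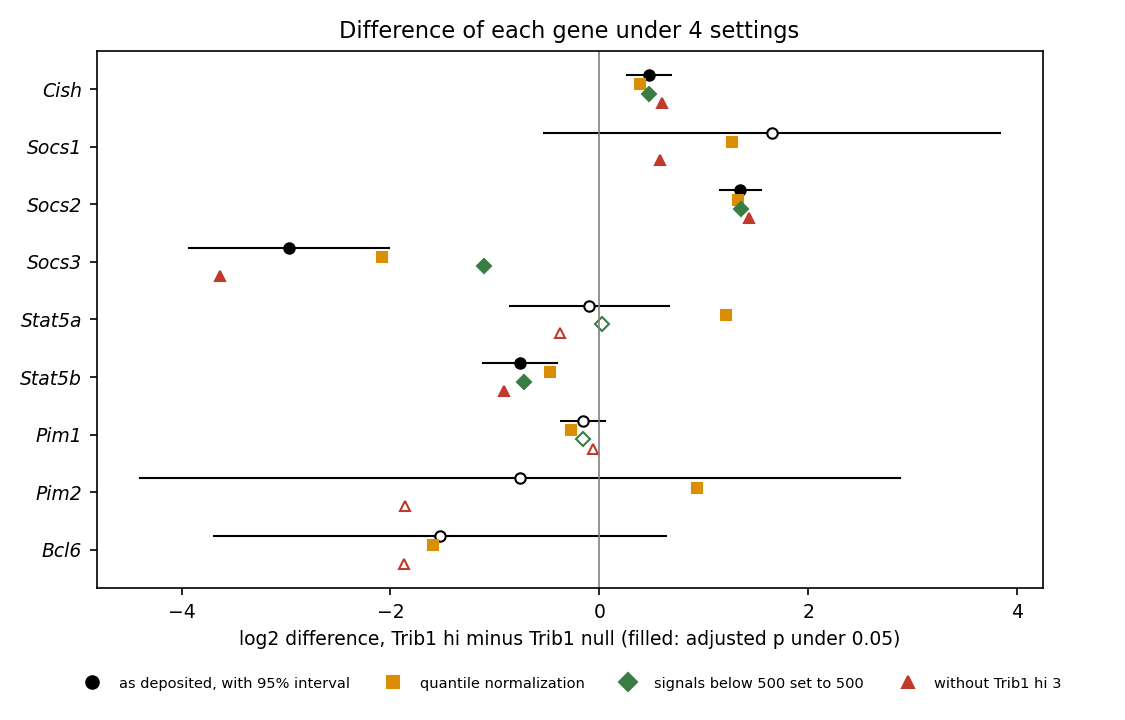
Log2 difference of each measured gene, Trib1 hi minus Trib1 null, as deposited with its 95% interval from limma and under 3 other settings, filled where the adjusted p was under 0.05. Cish, Socs2, Socs3 and Stat5b stay on 1 side of 0 in every setting shown, whereas Stat5a and Pim2 cross it after quantile normalization, Stat5a lies at 0.03 with signals below 500 set to 500, and Socs1, Pim2 and Bcl6 have no point with signals below 500 set to 500 because they never exceeded that value.

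Ratios within an array are not affected by a factor common to all its signals. The ratio of Socs2 to Pim1 was 0.714 to 0.782 on the arrays labelled Trib1 hi and 0.238 to 0.289 on those labelled Trib1 null. That of Cish to Pim1 was 0.836 to 0.966 on the arrays labelled Trib1 hi and 0.536 to 0.631 on those labelled Trib1 null. On Trib1 hi 3 these ratios were 0.782 and 0.849. The other arrays labelled Trib1 hi gave 0.714 to 0.772 for Socs2 and 0.836 to 0.966 for Cish. The Cish and Socs2 signals of Trib1 hi 3 were the lowest of its group. The ratio of Socs2 to Cish was 0.783 to 0.922 on the arrays labelled Trib1 hi and 0.432 to 0.484 on those labelled Trib1 null, so Socs2 and Cish changed unequally. For Socs3, signals below 500 were raised to 500, so its ratio to Pim1 is an upper bound on 3 arrays labelled Trib1 hi. It was at most 0.126 in the group labelled Trib1 hi, on Trib1 hi 3, and 0.170 to 0.207 in the group labelled Trib1 null. Such ratios show unequal change and not which gene changed.

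**Figure D4:**
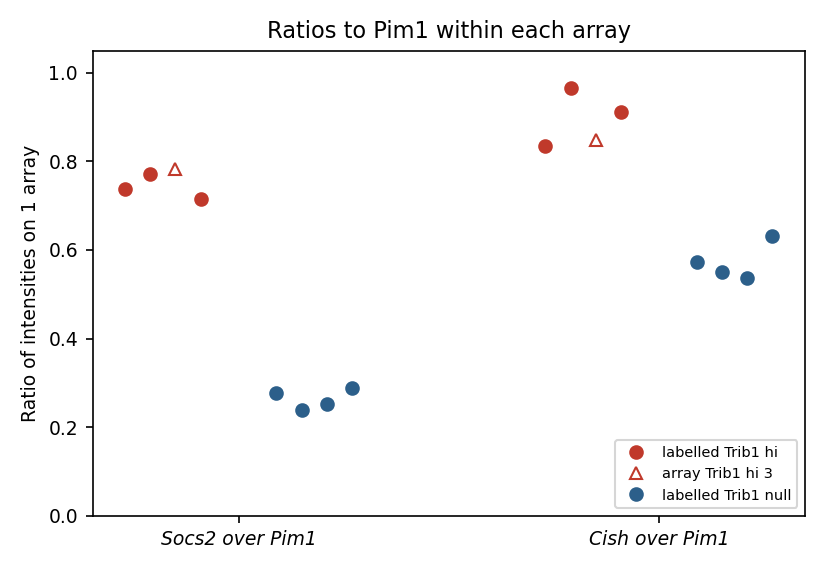
Ratio of Socs2 and Cish to Pim1 within each array (linear axis from 0), arrays labelled Trib1 hi on the left of each pair and those labelled Trib1 null on the right. Both ratios are higher in Trib1 hi arrays, with no overlap, and the open triangle marks Trib1 hi 3.

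The genes with the most similar pattern were found by Pearson's r of log2 values over the 8 arrays, which share the group difference and the lower bright signals of Trib1 hi 3. For Socs2 these were Cebpg, a C/EBP family member (r = 0.999), Abcd3, a peroxisomal transporter, and Ash2l, a subunit of histone methyltransferase complexes. Cebpg read 4993 ± 615 in the group labelled Trib1 hi and 1789 ± 11.1 in the group labelled Trib1 null (SD, n = 4 each). For Cish they were Vti1b, Cops5 and Park7 (r = 0.995 to 0.997). For Socs3 they were G6pd2, the adaptor gene Grb10 and Gmip (r = 0.998 to 0.999). For Stat5b they were Snx1, Cab39l and Mllt6 (r = 0.992 to 0.997), and for Pim1 Commd4, Pfn1 and Pisd (r = 0.977 to 0.978).

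Other genes of the pathway were taken from lists by role. Of 54 listed genes, 48 had a single-gene probe set and 46 were tested: 5 rose, 15 fell and 26 did not pass the test. Over all genes tested, 11.1% were higher and 19.7% lower. Of the 4465 genes above 500 on every array, 51.7% were called, 1155 higher and 1153 lower. More lower than higher calls was thus the pattern of all genes tested, but not of these brighter genes. Nor was it the pattern of all genes after quantile normalization (3350 higher and 3352 lower). The counts for each role below are to be read against those shares. The 46 tested pathway genes had a median log2 difference of -0.36, against 0.04 over all genes tested. Both medians include dim signals, and 18 of the 48 measured pathway genes lay below 500 on every array. The median over all genes was -0.25 with the filter at the 60th percentile and -0.33 without Trib1 hi 3. The pathway median was not recomputed under those settings. The plot of the pathway by role shows every tested gene.

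**Figure D5:**
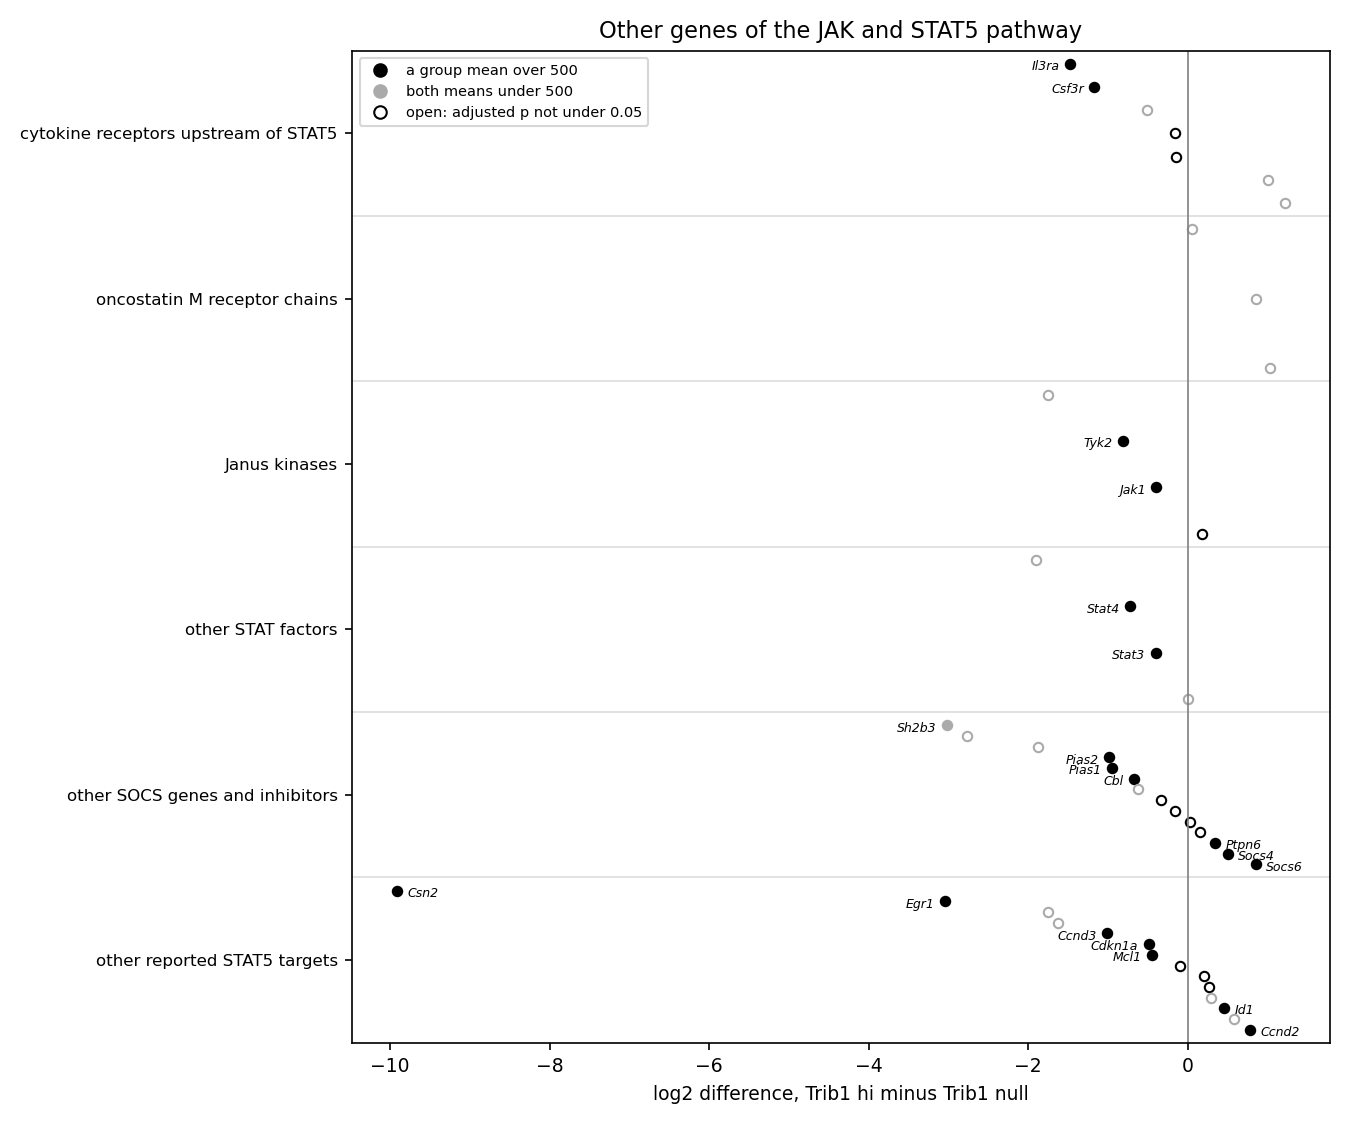
Log2 difference, Trib1 hi minus Trib1 null, of the tested genes of 6 pathway lists, black where a group mean exceeded 500, grey where neither did, and filled and named where the adjusted p was under 0.05. The tested receptors, Janus kinases and other STAT factors have filled points below 0 and none above it, and Csn2 lies at -9.92, a value that includes signals below 500 (-5.62 with those set to 500).

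Among 7 tested receptor genes, 0 rose and 2 fell, a share close to the 30.8% called over all genes. Il3ra, the alpha chain that binds IL-3, read 269 ± 230 in the group labelled Trib1 hi and 547 ± 17.4 in the group labelled Trib1 null (SD, n = 4 each). Its call (adjusted p = 0.00967) was lost under 4 of 18 alternatives, among them the floor of 500 (0.352, the highest of the 18). Csf3r, the G-CSF receptor, fell at least 1.65-fold (adjusted p = 0.000130). The shared beta chain Csf2rb read 11497 ± 2117 in the group labelled Trib1 hi and 12751 ± 1218 in the group labelled Trib1 null. The IL-3-specific mouse beta chain Csf2rb2 read 2827 ± 299 in the group labelled Trib1 hi and 3111 ± 153 in the group labelled Trib1 null. Neither gene passed the test (adjusted p = 0.438 and 0.318). After quantile normalization both passed it as lower (adjusted p = 2.55e-05 for Csf2rb and 0.000289 for Csf2rb2). Csf2rb did so too with the mean of its probe sets (log2 difference -0.91, adjusted p = 0.0204). The 3 chains that bind oncostatin M, Osmr, Il6st and Lifr, lay below 500 on every array and none (0 of 3) passed.

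Of 4 Janus kinases, 0 rose and 2 fell. Tyk2 fell 1.75-fold, to 844 ± 114 in the group labelled Trib1 hi against 1470.0 ± 72.5 in the group labelled Trib1 null (SD, n = 4 each, adjusted p = 3.43e-06). Jak1 fell 1.31-fold (adjusted p = 0.00147, but 0.0508 without a mean-variance trend and 0.0857 with the mean of its probe sets). Jak2, the kinase of the IL-3 receptor, read 2644 ± 323 in the group labelled Trib1 hi and 2315 ± 61.8 in the group labelled Trib1 null. It missed the threshold (adjusted p = 0.173). It passed upwards without Trib1 hi 3 (log2 difference 0.26, adjusted p = 0.0040) and after quantile normalization (0.14, adjusted p = 0.0205). Of 4 other STAT genes tested, 0 rose and 2 fell. Stat4 fell 1.65-fold (adjusted p = 2.70e-07). Stat3, which lies beside Stat5a, fell 1.32-fold (adjusted p = 0.00809, but 0.936 with the mean of its probe sets), with means of 1023 ± 97.9 and 1345 ± 36.0 (SD, n = 4 each).

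Of 14 tested SOCS genes and other inhibitors, 3 rose and 4 fell, against 11.1% higher and 19.7% lower over all genes. Socs6 rose at least 1.47-fold, to 745 ± 164 in the group labelled Trib1 hi against 409.8 ± 67.5 in the group labelled Trib1 null (SD, n = 4 each, adjusted p = 0.00199). Socs4, named after its values were seen, rose 1.42-fold (adjusted p = 0.000773). Both calls ended with the mean of their probe sets, where Socs4 turned to -0.33 on the log2 scale (adjusted p = 0.405 for Socs6 and 0.860 for Socs4). Pias1, a SUMO ligase that restrains STAT factors, fell at least 1.73-fold (adjusted p = 0.000175, but 0.0541 without a mean-variance trend). Its relative Pias2 fell at least 1.17-fold (adjusted p = 0.0173), but missed the threshold when Trib1 hi 1 (0.0707) or Trib1 hi 2 (0.109) was left out (up to 0.811 over the 18 alternatives). The phosphatase gene Ptpn6, the adaptor Sh2b3 and the ubiquitin ligase Cbl, also named after their values were seen, make up the rest of the calls, Ptpn6 higher and the other 2 lower. Ptpn6 missed the threshold when Trib1 hi 1 (adjusted p = 0.0620) or Trib1 hi 2 (0.0752) was left out, while Cbl did so when its probe sets were averaged (0.649). Sh2b3 lay below 500 on every array, and its call ended without Trib1 hi 1 or without any 1 array labelled Trib1 null (adjusted p = 0.0553 to 0.0836).

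Of 14 other reported STAT5 targets, 2 rose and 5 fell, against 11.1% higher and 19.7% lower over all genes, and 8 of the 14 lay above 500 on every array. Csn2, whose promoter window holds the same 9 letters as that of Cish, read 67.3 ± 116 in the group labelled Trib1 hi and 24718 ± 2173 in the group labelled Trib1 null (SD, n = 4 each). It lay below 500 on all 4 arrays labelled Trib1 hi and fell at least 49.3-fold. Egr1, an immediate-early factor also induced through ERK, fell at least 5.21-fold (adjusted p = 4.66e-15). Ccnd3, which encodes cyclin D3, fell 2.02-fold (adjusted p = 1.11e-10, but 0.590 when its probe sets were averaged). The other calls, named after their values were seen, were Ccnd2 (1.71-fold) and Id1 (1.37-fold) among those that rose, and Cdkn1a (1.40-fold) and Mcl1 (1.36-fold) among those that fell. Without a mean-variance trend Id1 and Mcl1 missed the threshold (adjusted p = 0.0645 and 0.0812). Cdkn1a is one of the 20 genes around Pim1 on chromosome 17.

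Of 8 myeloid markers tested, 5 read above 500 on every array. Ptprc, the leukocyte marker CD45, read 12539 ± 1998 in the group labelled Trib1 hi and 13069 ± 1303 in the group labelled Trib1 null (SD, n = 4 each). Of the 8, 3 rose (Mpo, Elane and Cebpa) and 3 fell (Itgam, Csf3r and Spi1). Over all genes tested 11.1% were higher and 19.7% lower, and 51.7% of genes above 500 on every array were called. The marker counts here are to be read against those shares. Mpo read 5201 ± 755 in the group labelled Trib1 hi but 2.92 ± 0.79 in the group labelled Trib1 null. Markers of B lymphoid (3 measured), T lymphoid (3), erythroid (3) and fibroblast (4) cells lay below 500 on every array. Of these, 2 B, 2 T, 3 erythroid and 1 fibroblast marker passed the filter on low values, and 0 were called by limma. Their summed levels were at most 637 in the group labelled Trib1 hi and 428 in the group labelled Trib1 null. Of 4 mast cell and basophil markers, 3 were tested, and 2 were called higher and 1 lower. Summed levels of the 4 were 20876 to 29563 in the group labelled Trib1 hi and 5991 to 6611 in the group labelled Trib1 null. Cpa3, mast cell carboxypeptidase, read 23607 ± 4093 in the group labelled Trib1 hi and 1385 ± 22.4 in the group labelled Trib1 null (SD, n = 4 each). Mcpt8 fell, at 2872 ± 220 in the group labelled Trib1 hi against 4980 ± 321 in the group labelled Trib1 null (SD). Kit was called higher by limma (adjusted p = 0.0160), but 3 of 4 arrays labelled Trib1 hi and 4 of 4 in the other group lay below 500. No fold is given for Kit, since such low signals could not be compared between arrays. Most of the summed level was Cpa3 in the group labelled Trib1 hi and Mcpt8 in the group labelled Trib1 null. The part of these lineage markers in the differences of Cish, Socs2, Socs3 and Stat5b was not tested.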

How the data were processed

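Per the submitters' processing notes, the deposited intensities come from MAS5, the Affymetrix method that reduces each probe set to 1 signal. The sources used here state no version or settings. The mean trimmed by 2% at both ends was 500.1 to 500.2 on every array, and no further scaling was applied. Gene symbols came from the platform annotation, in which 28898 probe sets had 1 symbol. Values were tested as log2(intensity + 2.71), the 25th percentile of all values. Differences that include dim signals depend on this constant. That of Socs3 was -2.97, and -2.15 with 100 added in place of 2.71. The filter on low values kept genes averaging above 3.01 on that scale (40th percentile of probe sets). limma 3.58.1 in R 4.3.3 (lmFit, eBayes with a mean-variance trend) compared both groups, two-sided, with Benjamini-Hochberg adjustment over 12250 genes. The step was tested on simulated data, which held none of the differences in low signal between whole arrays seen here. No test was run on the set itself or on the lists. Folds are ratios of geometric means after the floor of 500. Precision is limited by having 4 arrays a group.

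The genes, lists, floor and alternatives were chosen with earlier results of these data known. Named are all 10 genes, up to 3 called genes per pathway list with the largest difference and a group mean over 500, and for each brighter gene the 3 with the highest r. Chromosome order came from a GRCm38.p6 gene table, used for names and order alone since the labels name no build.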

Additional observations from a re-analysis of the deposited data

Results flagged for a closer look

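Of 18 groups of 4 arrays tested for a single distant value on the log2 scale (9 genes in 2 groups), 3 had one by Dixon's test at the 95% level, and chance flags about 1 group in 20. All 3 were Trib1 hi 3 in a dim gene. Socs1 read 192 on Trib1 hi 3, against 6.70 to 7.91 on the other arrays labelled Trib1 hi. Pim2 read 279 there, against 9.60 to 11.4. Bcl6 read 11.9 there, against 2.54 to 3.11. The background control GC25 was also highest on this array (379), and its part in these values was not tested.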

How the results depend on the processing

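The calls of Cish, Socs2, Socs3 and Stat5b, 4 of 4 in the same direction, held under 16 of 18 alternatives. With the mean of probe sets 2 of the 4 remained, and without a mean-variance trend 3. Over 157 recomputed differences of the 9 genes, 148 kept their direction and side of the threshold, or stayed uncalled. The count of the 9 genes past the threshold was 9 after quantile normalization and 2 with the mean of probe sets. Quantile normalization turned Stat5a to 1.21 and Pim2 to 0.93 on the log2 scale, both called, and the mean of probe sets turned Socs4 to -0.33. Pathway genes past the threshold numbered 20, against 37 after quantile normalization, 11 with the mean of probe sets and 12 without a mean-variance trend. Over all genes, 3350 were higher after quantile normalization and 725 with the mean of probe sets, while 1317 were lower with the mean of probe sets and 1274 without a trend. Leaving out 1 array at a time gave 1155 to 2080 higher and 1962 to 3774 lower, the most without Trib1 hi 3, when the median log2 difference of all genes was -0.33. The cause of these changes was not tested. Correlations between same-numbered arrays of the 2 groups ran from -0.51 to 0.49. They cannot decide whether same-numbered arrays were handled together, since they include the low signals that differed between arrays. With the replicate block 4 of the 9 genes, 20 pathway genes, 1284 genes higher and 2346 lower passed. Signals below 500 limit what can be said of Socs1, Stat5a, Pim2 and Bcl6.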
